A study of Bos taurus with 24 samples.

Results

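The 5 genes described here are a selection from those of fat synthesis and its regulation: FASN, ACACA, SCD, DGAT1 and SREBF1. They were chosen by Ensembl identifier, ENSBTAG00000015980 for FASN, ENSBTAG00000017567 for ACACA, ENSBTAG00000045728 for SCD, ENSBTAG00000026356 for DGAT1 and ENSBTAG00000007884 for SREBF1, and all 5 were found among the 24616 identifiers of every count file. The count files hold identifiers without names, and the names come from the list that set the choice. Bulk RNA sequencing had been done on liver and mammary gland of 12 dairy cows (Bos taurus) in milk. Of these cows, 6 ate an alfalfa hay based diet and 6 a corn stover based diet for 12 weeks before slaughter. Alfalfa hay is a legume forage, and corn stover is the stalk and leaf left after the grain harvest. The cows were in parity 2 or 3, and each gave both tissues. They were at 231 to 246 days in milk on alfalfa hay and at 228 to 254 on corn stover. Each of the 4 groups, a tissue on a diet, thus holds 6 libraries from 6 cows, and no label gives age or breed.

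Fatty acids are built from acetyl units in the cytosol. Acetyl-CoA carboxylase, the product of ACACA, makes malonyl-CoA, and fatty acid synthase, the product of FASN, joins these units into saturated chains. Stearoyl-CoA desaturase, the product of SCD, turns saturated chains into monounsaturated ones such as oleic acid. Diacylglycerol acyltransferase, the product of DGAT1, adds the last fatty acid of a triglyceride, and SREBF1 encodes the transcription factor SREBP1, which is known to drive genes of fatty acid synthesis. In ruminants new fatty acids are made mainly from acetate in adipose tissue and in the lactating mammary gland, and little is made in liver.

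Libraries held 22579051 to 37954234 reads counted to genes. The 10 most abundant genes took 64.6% to 80.5% of the reads of a mammary library and 26.3% to 36.1% of those of a liver library. Levels are therefore given as normalised CPM, counts per 1000000 reads after TMM scaling, which sets libraries by a trimmed mean of their ratios, over all 24 libraries. Scaling factors ran from 0.523 to 0.985 in mammary gland and from 0.997 to 1.61 in liver, where both libraries numbered 1 were lowest. No transcript lengths were used, so levels are compared between libraries and not between genes. In 5 of the 6 livers on alfalfa hay, replicates 1 to 5, the column header names the tissue by its letter, which the headers of the other 7 livers do not. These 5 livers also held more reads of 11 mammary-type genes, chosen as abundant in mammary gland and nearly silent in liver, up to 296 ppm (parts per 1000000) of the mammary level against at most 38.9 ppm in the other livers. At that rate, reads from mammary tissue would make up at most 9.07% of the FASN level and 3.07% of the SCD level of any liver library, and at most 0.301% for ACACA, DGAT1 and SREBF1. Reads of 60 liver-type genes reached 70.8 to 400.05 ppm of the level in liver in the mammary libraries of alfalfa hay cows, and 204 to 1976 ppm in those of corn stover cows. Known tissue and cell type markers could not be looked up by name.

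FASN was 248-fold, SCD 65.5-fold and ACACA 14.4-fold higher in mammary gland than in liver, whereas no difference in DGAT1 passed the test. Together the 5 genes took 0.319% ± 0.110 of reads in mammary gland on alfalfa hay and 0.353% ± 0.136 on corn stover (SD, n = 6 each), against 0.0112% ± 0.00501 and 0.0156% ± 0.00504 in liver. The tissue difference passed the threshold for 4 of the 5 genes, all higher in mammary gland (edgeR quasi-likelihood test, p below 0.05 after Benjamini-Hochberg adjustment). Of 13760 genes tested, 68.2% were called, 33.5% higher and 34.7% lower in mammary gland. The median log2 difference of the 5 genes was 3.85, and that of all genes tested was -0.02. This fit did not pair the tissues of a cow. With the cow as a block the log2 difference was 8.03 for FASN, 6.32 for SCD and 3.91 for ACACA. The edgeR adjusted p was 3.26e-11, 1.30e-10 and 9.06e-11 in turn. It was 1.38 for SREBF1 (edgeR adjusted p = 0.00182) and -0.36 for DGAT1 (edgeR adjusted p = 0.205). In whole tissue, a difference in the share of cells that express a gene and one in the RNA per cell cannot be told apart.

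FASN, the synthase itself, stood at 5.47 to 21.0 CPM in the 12 livers with a median of 7.96, and at 1265 to 4279 CPM in the 12 mammary libraries with a median of 2606. Every mammary library lay far above every liver library. Within a cow the mammary level was 90.1 to 729.9 times the liver level, with a median of 268. On the log2 scale it was higher by 7.96 ± 0.37 (SE; edgeR adjusted p = 2.23e-16), a fold of 248 with a 95% interval of 147 to 419.

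SCD, the desaturase, ran from 2.95 to 90.9 CPM in liver with a median of 21.6, and from 1064 to 1894 CPM in mammary gland with a median of 1529.8. The livers differed among themselves by 30.8 times and the mammary libraries by 1.78 times. Its log2 tissue difference was 6.03 ± 0.36 (SE; edgeR adjusted p = 5.34e-14), a fold of 65.5 with an interval of 39.05 to 109.9. The ratio of mammary gland to liver was lowest in corn stover cow 5, at 18.3, and highest in alfalfa hay cow 6, at 415. Those are the cows with the highest and the lowest SCD level in liver.

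ACACA, the carboxylase, stood at 13.4 to 54.9 CPM in liver, median 19.1, and at 195 to 483 CPM in mammary gland, median 352. The tissues did not overlap, and the ratio within a cow ran from 5.27 to 24.3. Its log2 difference was 3.85 ± 0.21 (SE; edgeR adjusted p = 5.15e-15), a fold of 14.4 with an interval of 10.7 to 19.3. FASN, SCD and ACACA were thus the 3 members with all 12 mammary libraries above all 12 livers, as in 10.8% of the genes tested. The tissues did not overlap, in either direction, in 24.4%.

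**Figure D1:**
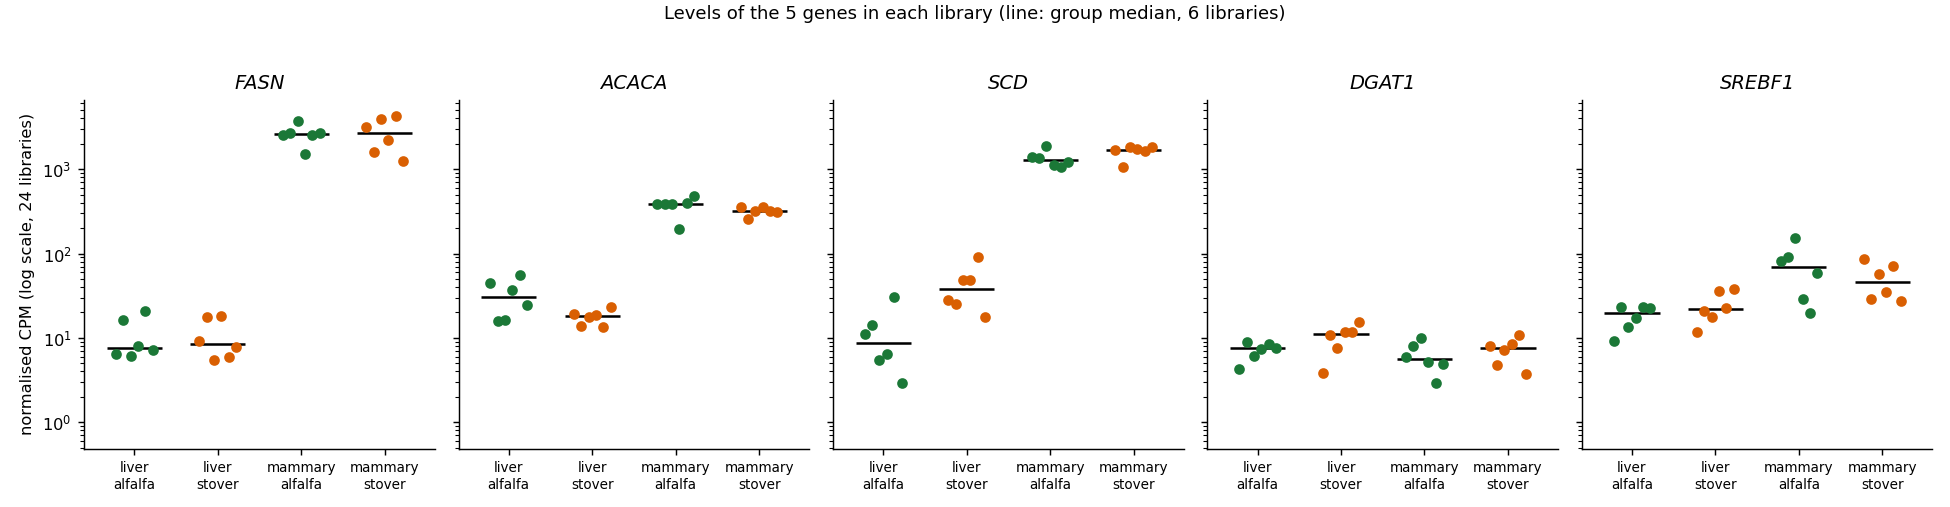
Normalised CPM on a log scale (vertical) of each gene in the liver and mammary libraries on alfalfa hay (green) and corn stover (orange), with 1 point per library and a line at the group median. FASN, ACACA and SCD lie higher in every mammary library than in any liver, DGAT1 overlaps between the tissues, and SCD in liver spreads from 2.95 to 90.9 CPM.

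SREBF1, the regulator, was 2.87-fold higher in mammary gland, and its tissues overlapped. It ran from 9.15 to 37.9 CPM in liver, median 21.6, and from 19.5 to 151 CPM in mammary gland, median 57.6. In 7 of 12 mammary libraries it exceeded every liver, and in 9 of 12 cows the mammary level was above the cow's own liver level. Its log2 difference was 1.52 ± 0.28 (SE; edgeR adjusted p = 3.73e-05), a fold of 2.87 with an interval of 1.91 to 4.30. When library totals alone set the scale, the log2 difference was 0.59 (edgeR adjusted p = 0.114) and the call was lost. That scaling moved the median of all genes by -0.98. Relative to the median, SREBF1 was at 1.54 with TMM, 1.58 with totals alone and 1.52 without the most abundant genes. A change of scale moves all genes by nearly the same amount, so this distance stays near constant for any gene. Its constancy does not bear on whether SREBF1 differs between the tissues.

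DGAT1, the last step of triglyceride assembly, did not pass the test between the tissues. It stood at 3.86 to 15.5 CPM in liver, median 8.004, and at 2.94 to 10.7 CPM in mammary gland, median 6.57, from 45 to 682 reads per library. Only 3 of 12 cows had more in mammary gland than in liver. On the log2 scale mammary gland minus liver was -0.36 ± 0.22 (SE; edgeR adjusted p = 0.145), with a 95% interval from -0.80 to 0.09. This gene's tissue difference followed the scaling. By library totals alone it was -1.35 (edgeR adjusted p = 6.32e-05), and with the 10 most abundant genes of each tissue left out of the totals it was 0.09 (edgeR adjusted p = 0.730). These scalings moved the median of all genes by -0.98 and 0.48. Relative to the median, DGAT1 was at -0.34 with TMM, -0.35 with totals alone and -0.37 without the most abundant genes. That distance, too, stays near constant by construction. The scalings also moved the share of calls that were higher in mammary gland from 49.1% to 16.6% and 68.7%.

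**Figure D2:**
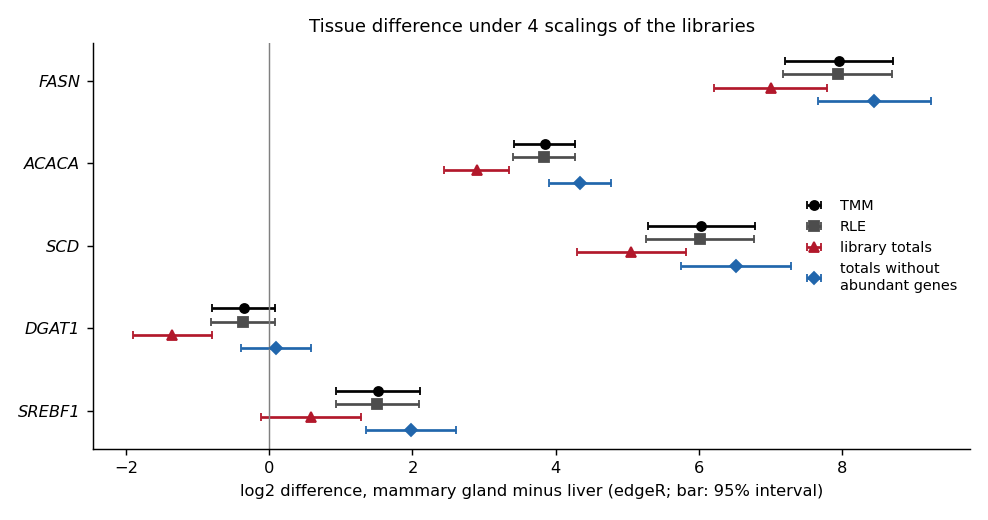
Log2 difference of mammary gland minus liver (horizontal) for the 5 genes under 4 ways of scaling the libraries, with 95% intervals from edgeR. FASN, SCD and ACACA lie far above 0 under each scaling, from 2.90 for ACACA to 8.45 for FASN, while DGAT1 moves from -1.35 to 0.09.

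The diet comparison in mammary gland asks whether the milk-making tissue held other levels of these transcripts on corn stover. Cows on that diet gave 17.1 to 23.3 kg of milk per day, against 23.3 to 29.0 kg on alfalfa hay. None of the 5 genes passed the threshold, and neither did any of the 12027 genes tested (edgeR quasi-likelihood test, 0%). At an unadjusted p below 0.05 there were 0 of the 5 genes and 6.52% of all genes by edgeR, and DESeq2, which called 0.349% of all genes, and limma voom also called 0 of the 5. The fitted difference was above 0 for 3 members and below 0 for 2, and its median was 0.06 against 0.00138 over all genes. In no member did the diets separate, which 0.341% of all genes did.

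FASN in mammary gland stood at 1516, 2606 and 3740 CPM on alfalfa hay and at 1265, 2681 and 4279 CPM on corn stover (lowest, median and highest of 6). Corn stover cows 3 and 5 lay above every alfalfa hay cow and corn stover cow 6 lay below them all, so the diets overlapped widely. The diets differed by a log2 value of 0.06 ± 0.30 (SE; edgeR adjusted p = 0.993) with a 95% interval from -0.57 to 0.69, and its sign turned in several of the alternatives tried.

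SCD stood at 1064, 1289 and 1894 CPM on alfalfa hay and at 1065, 1704 and 1849 CPM on corn stover (lowest, median and highest). The corn stover cows other than cow 2 sat at 1662 CPM or more, and the alfalfa hay cows other than cow 3 at 1398 CPM or less. The log2 difference was 0.28 ± 0.19 (SE; edgeR adjusted p = 0.888), with an interval from -0.14 to 0.69. A rise or fall of 2-fold lies outside that interval.

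ACACA stood at 195, 382 and 483 CPM on alfalfa hay and at 257, 317 and 353 CPM on corn stover. The alfalfa hay cows other than cow 4 all lay above every corn stover cow, and alfalfa hay cow 4 lay below them all. The log2 difference was -0.22 ± 0.19 (SE; edgeR adjusted p = 0.926), with an interval from -0.63 to 0.19. By library totals alone, 1 alfalfa hay cow lay above every corn stover cow. Without alfalfa hay cow 4, whose library was the deepest and had the lowest scaling factor, it was -0.35 (edgeR adjusted p = 0.678, unadjusted p = 0.0401), and without alfalfa hay cow 6, the highest, it was -0.14 (edgeR adjusted p = 0.972, unadjusted p = 0.504).

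DGAT1 in mammary gland stood at 2.94, 5.60 and 10.1 CPM on alfalfa hay and at 3.73, 7.55 and 10.7 CPM on corn stover, which differed by 0.20 ± 0.30 on the log2 scale (SE; edgeR adjusted p = 0.962). Of the 5 genes SREBF1 varied most between mammary libraries on alfalfa hay. It stood at 19.5, 69.8 and 151 CPM on alfalfa hay, a 7.78-fold range, and at 27.6, 45.8 and 86.8 CPM on corn stover. Its log2 difference was -0.49 ± 0.42 (SE; edgeR adjusted p = 0.923), with an interval from -1.37 to 0.39. With single libraries left out this difference ran from -0.70, without corn stover cow 1, to -0.13, without alfalfa hay cow 3, the highest. With days in milk as a covariate it was -0.75, and without corn stover cows 2, 3 and 4, whose libraries held the most reads of liver-type genes, it was -0.22.

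In liver the fitted level of SCD on corn stover was 3.59 times that on alfalfa hay, and that of ACACA on alfalfa hay was 1.85 times that on corn stover. Neither difference passed the threshold over all 12929 genes, and no gene of the liver comparison did (edgeR quasi-likelihood test, 0%). At an unadjusted p below 0.05 edgeR found these 2 of the 5 genes and 2.74% of all genes. Among all genes SCD had the 19th and ACACA the 49th smallest p. DESeq2 called 3 genes, 0.0232%, and limma voom 0 genes, none of them a member. In no member did the diets separate, which 0.0619% of all genes did. The fitted difference was above 0 for 3 members and below 0 for 2. Its median was 0.41, the value of SREBF1, against 0.00355 for all genes.

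SCD in liver stood at 2.95, 8.77 and 30.7 CPM on alfalfa hay and at 17.6, 38.3 and 90.9 CPM on corn stover (lowest, median and highest of 6), from 133 to 3643 reads per library. Of the alfalfa hay livers, 5 lay below every corn stover liver, and only alfalfa hay cow 5 reached the corn stover range. The diets thus overlapped through 1 cow, and 3 corn stover livers lay above all alfalfa hay livers. On the log2 scale corn stover minus alfalfa hay was 1.85 ± 0.52 (SE; edgeR unadjusted p = 0.00272, adjusted p = 0.99999), with a 95% interval from 0.75 to 2.94. Over the alternatives tried it kept its sign, at 1.49 to 3.87, and the adjusted p ran from 0.178 with DESeq2 to 0.999995. With days in milk as a covariate it was 1.58 (edgeR unadjusted p = 0.0166, adjusted p = 0.9998).

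Without alfalfa hay cow 5 the SCD difference was 2.41 (edgeR adjusted p = 0.710), and without corn stover cow 5, the highest, it was 1.49 (edgeR adjusted p = 0.9997). The header style that marks alfalfa hay livers 1 to 5 cannot be told apart from diet in those 5 libraries. Alfalfa hay cow 6, the only alfalfa hay liver with the header style of the corn stover livers, had the lowest SCD of all 12 livers, 2.95 CPM. With header style as a term the SCD difference was 3.87 (edgeR adjusted p = 0.9996), a value that rests on this 1 liver. The 11 mammary-type genes had 5.35 to 296 ppm of their mammary level in livers of the alfalfa hay cows, against 1.45 to 38.9 ppm in those of the corn stover cows, and their part in the diet difference of SCD was not tested.

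ACACA in liver stood at 15.7, 30.7 and 54.9 CPM on alfalfa hay and at 13.4, 18.2 and 23.2 CPM on corn stover. Of the alfalfa hay livers, 4 lay above every corn stover liver, and alfalfa hay cows 2 and 3 lay within the corn stover range. The log2 difference was -0.88 ± 0.29 (SE; edgeR unadjusted p = 0.00860, adjusted p = 0.99999), with an interval from -1.51 to -0.26. With header style as a term it was -0.47, again resting on alfalfa hay cow 6. With days in milk as a covariate the difference was -0.66 (edgeR unadjusted p = 0.0734). With single livers left out it ran from -1.02 to -0.66, at an edgeR unadjusted p from 0.00221 to 0.0300.

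FASN in liver stood at 6.12, 7.598 and 21.0 CPM on alfalfa hay and at 5.47, 8.46 and 18.4 CPM on corn stover. In each diet 2 cows, numbers 2 and 5 on alfalfa hay and 2 and 4 on corn stover, were at 16.3 CPM or more and the other 4 at 9.10 CPM or less. Its log2 difference was -0.04 ± 0.39 (SE; edgeR adjusted p = 0.99999), with an interval from -0.87 to 0.79.

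DGAT1 in liver stood at 4.33, 7.49 and 8.85 CPM on alfalfa hay and at 3.86, 11.2 and 15.5 CPM on corn stover, where 4 livers exceeded all alfalfa hay livers. The log2 difference was 0.50 ± 0.28 (SE; edgeR unadjusted p = 0.0965, adjusted p = 0.99999), with an interval from -0.10 to 1.101. Without corn stover cow 1, the lowest liver, it was 0.68 (edgeR unadjusted p = 0.00762, adjusted p = 0.913). Without corn stover cow 6, the highest, it was 0.35 (edgeR unadjusted p = 0.244, adjusted p = 0.9994). The unadjusted p of DGAT1 thus depended on single livers. SREBF1 stood at 9.15, 19.9 and 23.3 CPM on alfalfa hay and at 11.8, 21.7 and 37.9 CPM on corn stover, apart by 0.41 ± 0.29 on the log2 scale (SE; edgeR adjusted p = 0.99999). Replicate 1 was the lowest liver of its diet for both genes, on either diet.

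**Figure D3:**
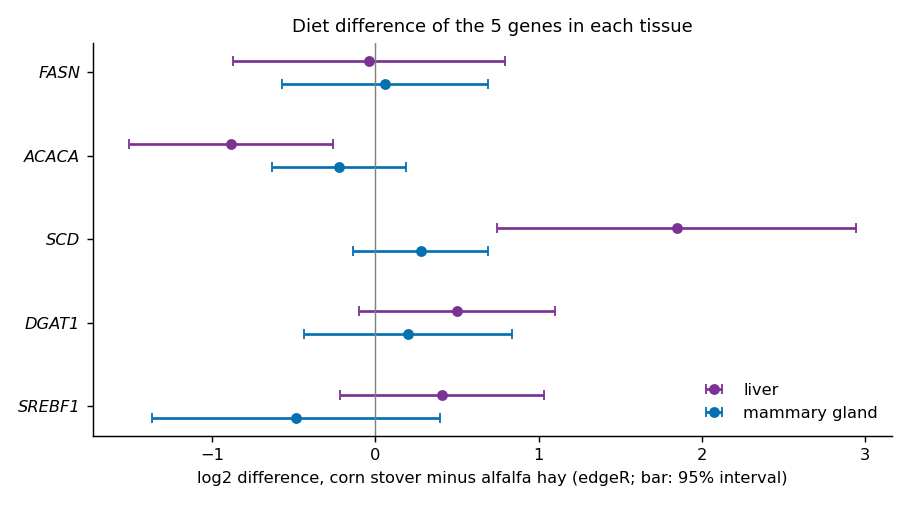
Log2 difference of corn stover minus alfalfa hay (horizontal) for the 5 genes in liver (purple) and mammary gland (blue), with 95% intervals from edgeR. The intervals of SCD (0.75 to 2.94) and ACACA (-1.51 to -0.26) in liver leave out 0 before adjustment over all genes, and those of the other liver genes and of all 5 genes in mammary gland include it.

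Ratios between members within a library do not depend on how libraries are scaled. SCD reads per FASN read in liver were at 0.416, 0.881 and 1.72 on alfalfa hay and at 1.44, 2.88 and 15.5 on corn stover (lowest, median and highest), a 4.23-fold difference of geometric means (exact permutation test over 924 assignments, two-sided, p = 0.00649, adjusted over 20 ratios 0.0649). SCD reads per ACACA read were at 0.121, 0.292 and 0.904 on alfalfa hay and at 0.758, 2.23 and 6.80 on corn stover, a 6.92-fold difference (exact permutation p = 0.00433, adjusted 0.0649). For each ratio 5 of 6 corn stover livers exceeded all alfalfa hay livers. The 20 ratios, 10 per tissue, were set after the levels had been seen, and none passed at an adjusted p below 0.05. Unadjusted, 6 of 10 passed in liver and 0 of 10 in mammary gland, where the exact permutation p for ACACA over SCD was the smallest at 0.0584. Each of the 6 holds SCD or ACACA, so they restate the liver differences of these genes and are not separate results. The share of ratios that pass among all gene pairs was not computed.

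**Figure D4:**
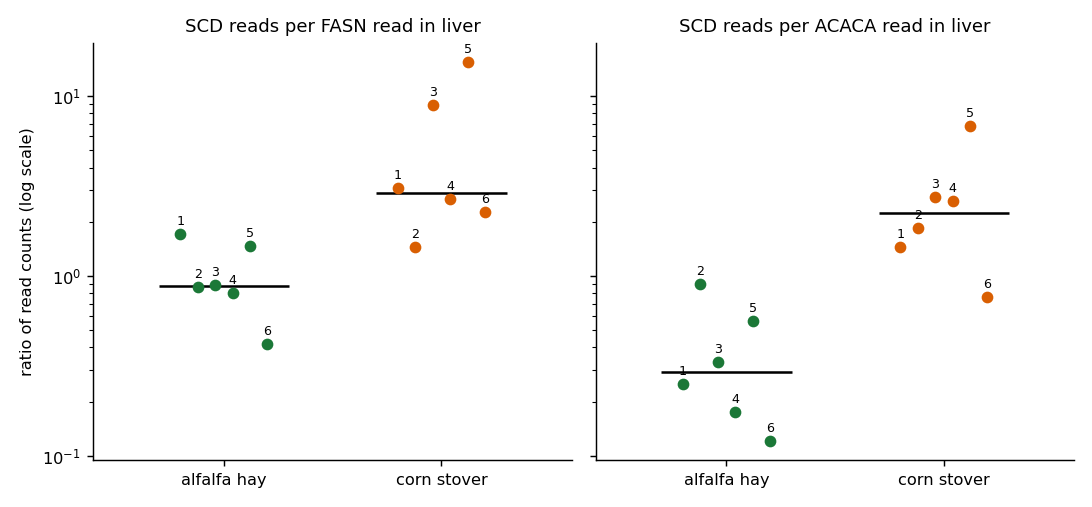
Ratio of SCD reads to FASN reads (left) and to ACACA reads (right) in each liver, on a log scale, by diet, with the cow's number at each point and a line at the median. The medians are 0.881 and 2.88 for SCD per FASN and 0.292 and 2.23 for SCD per ACACA, on alfalfa hay and corn stover in turn.

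The interaction asks whether diet acted differently on a gene in the 2 tissues. No member and no gene of 13760 passed the threshold (edgeR quasi-likelihood test, 0%), with 1 of 5 members, SCD, and 5.09% of all genes at an unadjusted p below 0.05. Limma voom called 0 genes and DESeq2 74, and no member was called by any of the tools. DESeq2 gave no adjusted p for DGAT1 and SREBF1. SCD had a log2 diet difference that was smaller in mammary gland than in liver by 1.59 ± 0.59 (SE; edgeR unadjusted p = 0.0119, adjusted p = 0.788; DESeq2 adjusted p = 0.0527), an interaction of -1.59 with an interval from -2.80 to -0.38. With the cow as a block it was -1.80 (edgeR adjusted p = 1). The interaction was 0.63 ± 0.37 for ACACA and -0.92 ± 0.56 for SREBF1 (SE; edgeR adjusted p = 0.9999 for each).

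DGAT1 and SREBF1 varied together between cows in both tissues. With the diet mean removed and levels scaled within a tissue, Pearson's r of their log2 levels over 12 livers was 0.91 (permutation p = 1e-05, the smallest that 100000 resamples can give, adjusted over 20 relations 0.0002) and Spearman's rho was 0.89 (permutation p = 0.00087, adjusted 0.0174). Within a diet r was 0.98 (alfalfa hay) and 0.91 (corn stover), and without the 2 livers farthest from the median DGAT1 level it was 0.84. Without both livers numbered 1 it was 0.86 (permutation p = 0.00012, adjusted 0.0024). In mammary gland r was 0.84 (permutation p = 0.00128, adjusted 0.0128) and rho 0.83 (permutation p = 0.00288, adjusted 0.0288), with r at 0.92 and 0.75 within the diets and 0.73 without the 2 farthest libraries. Of all genes tested, 0.170% had a higher r with SREBF1 than DGAT1 had in liver, and 1.41% did in mammary gland.

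Scaling factors of the libraries moved with some members. In mammary gland SREBF1 followed the library's own TMM factor at r = 0.77 (permutation p = 0.00544, adjusted over 10 relations 0.0388) and rho = 0.84 (permutation p = 0.00211, adjusted 0.0211), and 0.73 without the 2 farthest libraries. In liver DGAT1 and SREBF1 followed it at r = 0.80 and 0.76 (permutation p = 0.0116 and 0.0104, adjusted 0.0388 for each), with rho at 0.34 and 0.53. Those liver relations rested on 2 libraries, since r was 0.05 and 0.11 without the 2 farthest from the median factor. The share of all genes that follow the factor as closely was not computed, so these relations may not be particular to the members. By library totals alone, r between DGAT1 and SREBF1 was 0.95 in liver and 0.93 in mammary gland, above the values with TMM scaling. That scale raised r in general. It was above 0 in 65.4% of all gene pairs in liver and 71.2% in mammary gland, against 49.8% and 49.9% with TMM. In liver 0.0848% of all pairs reached the r of DGAT1 and SREBF1 by totals alone, and 0.11% did with TMM.

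**Figure D5:**
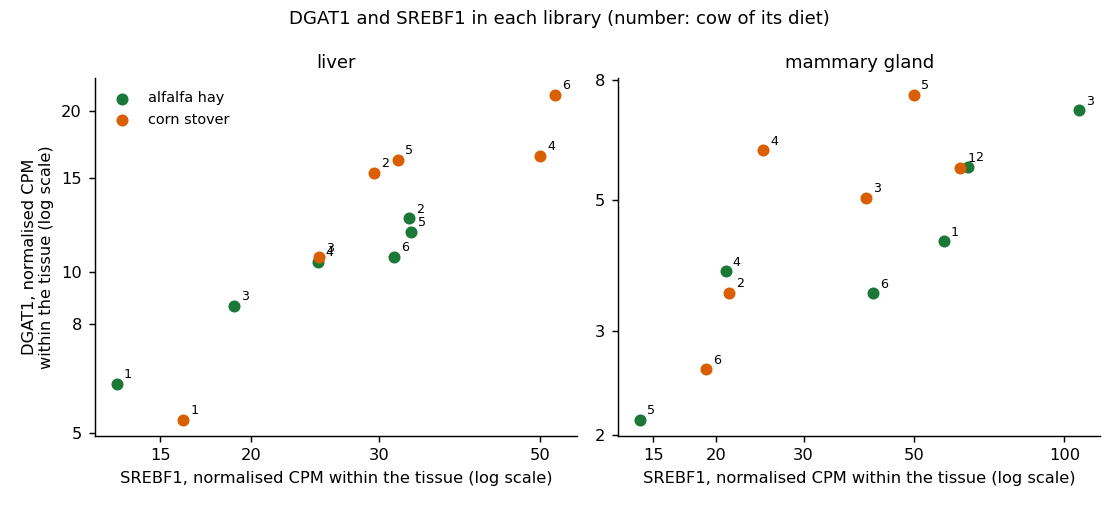
DGAT1 (vertical) against SREBF1 (horizontal), both in normalised CPM within the tissue on log scales, in liver (left) and mammary gland (right), with 1 point per library, coloured by diet and numbered by cow. Higher SREBF1 goes with higher DGAT1 in both tissues, at r = 0.91 in liver and r = 0.84 in mammary gland with the diet means removed.

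Of the other pairs, FASN and SREBF1 in mammary gland reached r = 0.69 (permutation p = 0.00748, adjusted 0.0499) and rho = 0.70 (permutation p = 0.0095, adjusted 0.0633), with r at 0.59 without the 2 libraries farthest from the median FASN level. All 10 pairs had r above 0 in mammary gland, as did 49.9% of all pairs of the 12027 genes, and the 10 pairs share 5 genes. Of the 10, 2 passed at an adjusted p below 0.05, with r at 0.689 or more, which 2.91% of all pairs reached. By library totals alone, where a change in the share of the abundant genes moves the other genes of a library together, 9 of the 10 passed. On that scale r was above 0 in 71.2% of all pairs, and 9.12% reached 0.685, the lowest r that passed among members. FASN and ACACA, successive steps of one pathway, reached r = 0.49 in mammary gland (permutation p = 0.0585, adjusted 0.195; rho 0.30, permutation p = 0.314) and 0.12 in liver (permutation p = 0.695, adjusted 0.866; rho 0.26, permutation p = 0.417). Without the 2 libraries farthest from the median FASN level these were 0.18 and -0.30. In liver no pair other than DGAT1 and SREBF1 passed, the next smallest adjusted permutation p being 0.384.

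Liver and mammary levels of a cow were set against each other for each member. Pearson's r between a cow's liver level and its mammary level was below 0 for all 5, from -0.11 for SCD to -0.57 for SREBF1, and for 49.4% of the 11363 genes tested in both tissues. Spearman's rho was below 0 for 4 of the 5 and 0.15 for ACACA. Without the 2 cows farthest from the median liver level, r was -0.06 for ACACA and -0.00325 for SCD. For SREBF1 the permutation p was 0.0552 (adjusted over 5 relations 0.276), rho was -0.62 (permutation p = 0.0363, adjusted 0.181), and r was -0.48 with the 2 cows farthest from its own median left out. None of these 5 relations passed the threshold.

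Milk yield was set against the mammary level of each gene within a diet, since the diets differ in yield. Of the 10 relations, 9 had r above 0, all 5 on alfalfa hay and 4 on corn stover, where 50.2% and 50.8% of all genes did. Without the 2 cows farthest from the median yield, r was above 0 in 5 of the 10. It went from 0.27 to -0.65 for ACACA and from 0.58 to -0.36 for DGAT1 on corn stover, and from 0.20 to -0.17 for SREBF1 and from 0.31 to -0.08 for SCD on alfalfa hay. None of the 10 passed after adjustment, with adjusted exact permutation p-values from 0.361 to 0.739. The smallest p was that of SREBF1 on corn stover, with r = 0.80 (exact permutation p = 0.0361, adjusted 0.361) and rho = 0.71 (exact permutation p = 0.136, adjusted 1). It rested on the cows at the ends, as r was 0.39 without the 2 cows farthest from the median yield. FASN had r = 0.61 on alfalfa hay (exact permutation p = 0.210, adjusted 0.562) and 0.67 on corn stover (exact permutation p = 0.150, adjusted 0.562). Its rho was 0.37 and 0.49 (exact permutation p = 0.497 and 0.356, adjusted 1 for each), and r was 0.29 and 0.36 without the 2 cows farthest from the median yield.

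Against the 12026 other genes tested in mammary gland, the pattern of FASN over the 12 libraries was most like that of ENSBTAG00000019908, at r = 0.95, and ENSBTAG00000019682, at r = 0.93. The lowest r were those of ENSBTAG00000019284, at -0.96, and ENSBTAG00000015147, at -0.93. The median r of all genes was -0.00111. SREBF1 ranked 626 and DGAT1 753 in this order, ACACA 2047 and SCD 2417, which put them above 94.8%, 93.7%, 83.0% and 79.9% of genes in turn. These r are descriptions over 12 libraries that share their scaling, and the files give no names for the 4 identifiers.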

How the data were processed

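Raw counts per gene, one file per library, were deposited by the authors, made with HTSeq 0.6.1, TopHat2 2.0.9 and SAMtools 1.1 on build UMD3.1 among the tools that the submitters' processing notes name. No label states the order of the tools, annotation release, strand setting or filters, so reads shared with overlapping or near-identical genes cannot be traced. Blank closing rows without a count were dropped. No identifier (0 of 24616) matched the gene table used here, so the planned pathway and marker lists could not be applied, and levels per length were not computed. The members and lists were chosen with earlier results of these data known. Named were the 5 members and, for the FASN pattern, the 2 features highest and lowest in r.

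Counts were tested in R 4.3.3 with edgeR 4.0.16 (quasi-likelihood test, filterByExpr with minimum count 10 and minimum total 15, TMM, Benjamini-Hochberg over all genes, threshold 0.05). Diet used the 12 libraries of a tissue, and tissue and interaction used all 24 with 4 group means. The standard error was the log2 difference over the square root of F, and 95% intervals follow from it. Alternatives were RLE factors, library totals alone, totals without the 10 most abundant genes of each tissue, other filters, DESeq2 1.42.0, limma 3.58.1 voom, days in milk, parity 3 cows, one fit of all libraries, header style, blocks, and libraries or cows left out. All tools were run on simulated data with planted differences. The share recovered is not given here, so this run does not bear on what comparisons without a call could have missed. Correlations used log2 normalised CPM and two-sided permutations within a diet. Liver and mammary libraries were paired by cow because milk yield, intake, parity and days in milk in the labels are identical. Their deviations from the group means correlated at -0.15 to 0.28, and 3 of 12 livers were closest to the mammary library of their own cow. Shares over all genes or gene pairs beside the correlations were added after the members' values were seen.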

Additional observations from a re-analysis of the deposited data

Results flagged for a closer look

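Of 20 groups of 6 values, 1 for each gene, tissue and diet, 2 held a library far from the others, where chance alone would give about 1. ACACA in mammary gland of alfalfa hay replicate 4 was at 195 CPM, while the other 5 cows of its group were at 381 to 483 CPM. That library had the highest read total, 37954234, and the lowest scaling factor, 0.523, and the part of these in its low ACACA level was not tested. SCD in mammary gland of corn stover replicate 2 was at 1065 CPM, against 1662 to 1849 CPM in the other 5. Without it the log2 diet difference of SCD in mammary gland was 0.37 in place of 0.28 (edgeR adjusted p = 0.793).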

How the results depend on the processing

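In all alternatives tried, SCD kept its sign and stayed short of the threshold for diet in each tissue, as did ACACA and SREBF1; the tissue calls of FASN, SCD and ACACA held throughout. FASN, close to 0 for diet, changed sign. In liver it was 0.17 in parity 3 cows and 0.60 with header style as a term, and with single livers left out it ran from -0.26 to 0.26, above 0 without alfalfa hay replicates 2 or 5 (0.11, 0.26) or corn stover replicates 1, 3, 5 or 6 (0.02, 0.10, 0.09, 0.04). In mammary gland it was -0.034 with limma voom, -0.18 with days in milk and -0.028 with the replicate block, and with single libraries left out -0.11 to 0.21, below 0 without alfalfa hay replicate 4 (-0.05) or corn stover replicates 3 or 5 (-0.07, -0.11). Its interaction was -0.00817 with limma voom, -0.025 with the cow as a block and -0.23 to 0.40 with single cows left out, below 0 without alfalfa hay cows 2 or 5 (-0.07, -0.23) or corn stover cows 1, 3 or 5 (-0.00859, -0.18, -0.22). DGAT1 for diet in mammary gland turned to -0.088 with days in milk. For tissue, DGAT1 was -1.35 by library totals alone, where it was called, and 0.094 without the most abundant genes, and SREBF1 lost its call at 0.59 by totals alone; in each case the scale of all genes had moved.

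Over all genes, DESeq2 called 3 for diet in liver, 42 in mammary gland and 74 for the interaction in place of 0, the fit of all 24 libraries 3 in liver, the replicate block 12 in mammary gland, and single cows left out 0 to 2 for the interaction, 2 without alfalfa hay cow 4. The cause was not tested. Replicate numbers name different cows across diets; same-numbered libraries correlated at 0.06 to 0.60 in liver and -0.26 to 0.29 in mammary gland, with 4 and 3 of 6 closest to their own number. Neither the replicate block nor the cow block changed a member's call.

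By library totals alone, r in mammary gland rose past the threshold for FASN with ACACA (0.73), SCD (0.72) and DGAT1 (0.78), for ACACA with SCD (0.73) and SREBF1 (0.68), and for SCD with DGAT1 (0.75) and SREBF1 (0.88). In liver r turned sign for ACACA with DGAT1 (0.20 by totals, 0.25 without both livers numbered 1) and with SREBF1 (0.26 and 0.39), and the yield relation of SCD on corn stover turned to 0.26. DGAT1 in mammary gland, with 45 to 191 reads per library, carries the counting error of those reads.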
